A study of Mus musculus with 55 samples.

Results

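Stromal progenitors of white fat were studied through 10 marker genes, followed across the 7 genotypes and both sexes: Pdgfra, Pdgfrb, Dpp4, Pi16, Cd34, Cd55, Zfp521, Ly6a, Dlk1 and Wnt2. They were chosen by name, and each matched exactly 1 of the 43432 Ensembl genes in the deposited table of gonadal fat. These markers and the further gene lists below were picked with earlier results of these data known. Counts among them therefore describe the lists and do not test them. All 10 passed the filter on low counts, which kept 21113 genes for testing.

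Stromal progenitors are the non-adipocyte mesenchymal cells of the fat pad from which new adipocytes form. In mouse fat, cells carrying DPP4, PI16 and CD55 lie in the fibrous interstitium and are held to give rise to more committed preadipocytes, which lose these markers. PDGFRA marks most of these fibroblast-like cells, PDGFRB marks pericytes and perivascular progenitors, and ZFP521, DLK1 and WNT ligands are known to hold back the step to adipocytes. Several of the markers are not private to progenitors: Cd34 and Ly6a are also transcribed by endothelial cells.

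Messenger RNA of the white fat around the gonad was sequenced from C57BL/6 mice aged 6 months. The mice were wild type (WT) or heterozygous for a knock-in allele of Htt, the Huntington's disease gene, named for the length of its CAG repeat, from Q20 and Q80 through Q92, Q111 and Q140 to Q175. The knock-in mice kept 1 wild-type copy of Htt, Q20 has a repeat in the unexpanded range, and the controls were wild-type littermates. Each group of genotype and sex held 4 libraries, except WT females with 3, which gave 55 libraries in 14 groups. WT mice were housed with Q20 mice and every other genotype with its own kind, so housing and genotype cannot be told apart in any comparison other than Q20 against WT. The sample titles number the libraries as replicates without naming animals, so each p-value measures the spread between these libraries. The column names of the deposited counts also carry a code per library, whose meaning is not given. In WT and in Q175, all libraries of the same sex shared the first part of this code, which differed between these groups. Whatever that part stands for cannot be told apart from the group there.

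Total counts per library ran from 35094392 to 51363577 with a median of 42009295. The library numbers in the labels fell into 2 ranges, with all 15 WT and Q175 libraries in one and 39 of the other 40 in the other. Q175 against Q20 and Q20 against WT therefore also set one range against the other, and the 2 cannot be told apart. In 2 Q140 libraries, labelled female 1 and male 4, the sex-linked RNAs Xist and Ddx3y contradicted the labelled sex. Summed markers of the epididymis, which lies against this fat in males, reached 100 CPM (counts scaled to the library total) in 11 of 28 male libraries. These included the 4 Q175 males and no female or WT library. Gene counts do not show the repeat length, so the genotype labels could not be checked from them. In bulk tissue, more cells of a type and more RNA per cell cannot be told apart.

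Levels were compared between genes on the authors' FPKM scale, which divides by gene length. Over all 55 libraries, Ly6a, the surface protein Sca-1, was the most abundant at 157 ± 49.8 FPKM (SD), followed by the sialomucin gene Cd34 at 73.8 ± 21.7. The complement-protecting Cd55 had 23.5 ± 9.40, the peptidase inhibitor gene Pi16 19.8 ± 9.40, Pdgfrb 15.03 ± 4.23, Pdgfra 12.6 ± 4.48 and the peptidase gene Dpp4 8.35 ± 5.17 FPKM. From Cd55 down to Dpp4, each mean ± SD range overlapped the next. The order is a description, and differences between neighbours were not tested. Zfp521, a zinc finger protein, had 2.32 ± 0.834, the membrane protein gene Dlk1 0.924 ± 0.416 and the secreted ligand gene Wnt2 0.360 ± 0.256 FPKM, and the last 2 also overlapped. Wnt2 rested on 1 to 84 counts per library and Dlk1 on 16 to 161, while every other gene of the 10 had at least 262 counts in each library.

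Promoter sequences are printed for Pdgfra, Dpp4, Pi16 and Cd55, the markers called higher in Q175 than in WT fat that had an entry in the RefSeq promoter table, to show whether genes that moved together share short motifs at their start. The table, on build GRCm38.p6, held 7 of the 10 genes, each as 250 bases before and 50 bases after the start. Pdgfrb, Zfp521 and Ly6a were not among them. Pdgfra lies at chr5:75152001-75152300 on the + strand, Dpp4 at chr2:62412182-62412481 on the - strand, Pi16 at chr17:29318632-29318931 on the + strand and Cd55 at chr1:130462695-130462994 on the - strand. Each sequence reads 5′ to 3′ along its gene, and capitals mark the letters of a motif match.
Pdgfra: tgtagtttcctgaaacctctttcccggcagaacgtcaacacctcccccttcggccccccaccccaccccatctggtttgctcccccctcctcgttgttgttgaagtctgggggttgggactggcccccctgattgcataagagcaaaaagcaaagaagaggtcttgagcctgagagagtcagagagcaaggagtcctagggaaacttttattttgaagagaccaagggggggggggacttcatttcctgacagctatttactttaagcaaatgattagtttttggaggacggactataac
Dpp4: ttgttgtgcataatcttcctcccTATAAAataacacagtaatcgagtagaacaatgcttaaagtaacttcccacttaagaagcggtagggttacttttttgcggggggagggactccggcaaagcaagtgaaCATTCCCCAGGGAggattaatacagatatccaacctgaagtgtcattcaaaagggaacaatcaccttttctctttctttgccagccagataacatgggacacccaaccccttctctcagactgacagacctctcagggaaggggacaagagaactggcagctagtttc
Pi16: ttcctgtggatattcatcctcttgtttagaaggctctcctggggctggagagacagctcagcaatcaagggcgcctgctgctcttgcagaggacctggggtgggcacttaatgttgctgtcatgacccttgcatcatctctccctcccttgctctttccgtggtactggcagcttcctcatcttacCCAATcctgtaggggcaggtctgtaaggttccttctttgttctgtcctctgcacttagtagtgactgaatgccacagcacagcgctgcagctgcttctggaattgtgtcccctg
Cd55: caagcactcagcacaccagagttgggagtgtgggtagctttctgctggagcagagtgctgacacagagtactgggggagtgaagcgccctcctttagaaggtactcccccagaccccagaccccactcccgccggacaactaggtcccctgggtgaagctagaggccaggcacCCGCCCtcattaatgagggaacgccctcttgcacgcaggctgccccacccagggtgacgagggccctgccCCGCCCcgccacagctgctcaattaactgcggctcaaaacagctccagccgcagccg
The search covered 5 motifs on both strands. The palindromic site of EBF factors, with which ZFP521 interacts, was found in 0.904% of the 32851 promoters of the table and in the Dpp4 promoter alone among the 7. There it makes up the last 10 of the capitals CATTCCCCAGGGA, whose first letters also match the TEAD motif GGAATG on the other strand (14.7% of all promoters), so that these matches overlap. Dpp4 also holds the letters of the TATA box, TATAAA (13.6% of all promoters), but near the 5′ end of its window and far from the start. Pi16 holds a CCAAT box, CCAAT (37.4%), and Cd55 has 2 GC boxes, GGGCGG (35.7%), both on the other strand. None of the 5 motifs matched in the Pdgfra window. A match describes letters only, and whether any factor binds there was not measured.

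The first question was how fat of mice with the longest repeat, Q175, differed from WT fat within one range of library numbers. Of the 10 progenitor markers, 5 were called higher and none lower: Pdgfra, Pi16, Dpp4, Cd55 and Zfp521. Among all 21113 tested genes, 3.34% were called higher, 7.1% lower and 10.4% in either direction, at a Benjamini-Hochberg adjusted p under 0.05 in edgeR's quasi-likelihood test. All 10 fitted differences were above 0, as were those of 50.97% of all tested genes. The median of the 10 was 0.68 on the log2 scale against 0.0094 over all tested genes. WT had the lowest mean of the 7 genotypes for 7 of the 10 markers and Q175 the highest for 6. How often this order held over all tested genes was not counted.

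Pdgfra, the receptor alpha for platelet-derived growth factors, had 50.9, 66.5 and 80.2 CPM in the WT females and 47.1, 49.8, 50.9 and 111 CPM in the WT males. In Q175 it had 107, 128, 132 and 134 CPM in females and 101, 105, 111 and 113 CPM in males. All Q175 females lay above all WT females, whereas WT male 1 reached into the Q175 range and the other 6 WT libraries lay below it. The difference was 0.83 ± 0.19 (log2 ± SE, adjusted p = 0.00477), a 1.78-fold higher level. By genotype, mean levels of Pdgfra were 65.2 ± 23.3 CPM in WT (n = 7), 71.8 ± 20.6 in Q92, 72.9 ± 8.07 in Q20, 75.7 ± 24.6 in Q140, 77.4 ± 19.2 in Q80, 89.5 ± 27.6 in Q111 and 116 ± 12.8 in Q175 (SD, n = 8 each). The genotypes from WT to Q140 overlapped each other within 1 SD, and of these Q111 alone overlapped Q175.

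Pdgfrb, the receptor beta, ranged from 72.7 to 106.5 CPM in WT and from 84.7 to 114 CPM in Q175. The groups overlapped in both sexes, and the difference of 0.19 (95% interval -0.24 to 0.61, adjusted p = 0.641) was not called. Its mean level was highest in Q175, at 100.1 ± 9.56 CPM, then 88.6 ± 14.7 in WT, 83.1 ± 12.1 in Q111, 74.4 ± 20.3 in Q140, 73.7 ± 29.9 in Q92, 73.6 ± 17.0 in Q20 and 72.3 ± 9.69 in Q80, each neighbour within 1 SD of the next. Of the 4 ligand genes that these receptors bind, Pdgfd alone was called, higher by 0.90 ± 0.17 (adjusted p = 0.000875). Pdgfc (0.17, adjusted p = 0.474), Pdgfb (-0.22, adjusted p = 0.594) and Pdgfa (-0.07, adjusted p = 0.79) did not pass the test.

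Dpp4, which encodes a cell surface peptidase, had 18.9, 19.1 and 33.3 CPM in WT females and 7.65, 11.2, 16.2 and 43.9 CPM in WT males. The Q175 females had 51.4, 60.5, 61.6 and 72.6 CPM and the Q175 males 33.2, 40.4, 42.2 and 43.8 CPM. Females did not overlap, and WT male 1 stood above all 4 Q175 males. The difference was 1.20 ± 0.38 (adjusted p = 0.0358), or 2.29-fold. Dpp4 means were 21.5 ± 12.8 CPM in WT, 39.0 ± 7.65 in Q111, 39.0 ± 23.6 in Q92, 41.3 ± 17.3 in Q20, 43.9 ± 21.8 in Q80, 49.3 ± 42.2 in Q140 and 50.7 ± 13.2 in Q175. The 6 knock-in genotypes overlapped each other, with WT at the bottom of the order.

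Pi16, a peptidase inhibitor of the interstitial fibroblasts, had 18.6, 28.4 and 45.1 CPM in WT females and 12.9, 24.6, 28.0 and 56.6 CPM in WT males. It stood at 99.9, 105, 107 and 111 CPM in the Q175 females and at 49.99, 52.2, 53.0 and 64.4 CPM in the Q175 males. Every Q175 female exceeded every WT library of either sex, while WT male 1 lay within the Q175 males. The difference of 1.32 ± 0.30 (adjusted p = 0.00435), 2.49-fold, was the largest among the 5 called markers. The order of Pi16 means ran from WT (30.6 ± 15.2 CPM) through Q80 (41.0 ± 12.2), Q20 (46.3 ± 13.6), Q140 (52.0 ± 24.8), Q92 (53.7 ± 29.8) and Q111 (58.8 ± 20.3) to Q175 (80.3 ± 27.6), with each neighbour inside 1 SD.

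Cd55, or decay-accelerating factor, which protects the cell surface from complement, had 38.4, 43.2 and 44.5 CPM in WT females and 24.4, 25.9, 31.1 and 56.0 CPM in WT males. Q175 females had 90.1, 94.8, 102 and 104 CPM, whereas Q175 males had 37.6, 41.8, 43.7 and 45.2 CPM. Females were widely separated and males overlapped. The mean of both sexes differed by 0.75 ± 0.23 (adjusted p = 0.0254), or 1.69-fold. From the highest, Cd55 means were 69.8 ± 30.0 CPM in Q175, 60.2 ± 17.1 in Q111, 58.7 ± 30.6 in Q140, 57.1 ± 23.5 in Q92, 56.7 ± 21.4 in Q80, 52.9 ± 9.18 in Q20 and 37.7 ± 11.3 in WT. Mouse Cd55 has a close neighbouring copy, and how reads shared with it were counted is not given in the sources used here.

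Other genes of the interstitial DPP4 progenitor were also examined. Of 15 such genes, 10 were called higher and none lower, with a median difference of 0.76. The matrix collagen gene Col14a1 rose by 1.66 ± 0.32 (adjusted p = 0.00104), the fibrillin gene Fbn1 by 1.44 ± 0.29 (adjusted p = 0.00181), the adhesion gene Opcml by 0.95 ± 0.21 (adjusted p = 0.00293) and the semaphorin gene Sema3c by 0.76 ± 0.18 (adjusted p = 0.00484). Their summed level was 878 ± 319 CPM in WT and 1436 ± 135 CPM in Q175. In contrast to this count, none of 9 genes of committed preadipocytes was called (median 0.05), the smallest p being those of Sparcl1 (0.37), Icam1 (0.27), Lpl (-0.40) and Cxcl14 (0.44). Whether these lists differ from each other was not tested. Of 6 genes of the CD142 stromal population, Clec11a alone was called (0.82 ± 0.27, adjusted p = 0.0432), with Fmo2 at 0.66 (adjusted p = 0.0514), Gdf10 at 0.78 (adjusted p = 0.0954) and Mgp at 0.63 (adjusted p = 0.107).

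Cd34, a sialomucin of progenitors and endothelium, had 101, 114 and 189 CPM in WT females and 103, 118, 156 and 209 CPM in WT males, against 206, 217, 233 and 283 CPM in Q175 females and 167, 168, 182 and 183 CPM in Q175 males. Females did not overlap and males did. With a difference of 0.53 (95% interval 0.16 to 0.90, adjusted p = 0.0549) it did not pass the threshold, while 9 of the 14 alternatives without single-library omissions called it, among them RLE scaling (adjusted p = 0.0411) and DESeq2 (adjusted p = 0.0201). Its means were 141 ± 43.5 CPM in WT, 169.9 ± 36.1 in Q80, 170.0 ± 52.1 in Q92, 184.5 ± 31.6 in Q20, 188 ± 70.4 in Q140, 205 ± 39.3 in Q175 and 217 ± 40.9 in Q111.

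Ly6a, which encodes the stem cell antigen Sca-1, ranged from 80.0 to 137 CPM in WT and from 109 to 158 CPM in Q175, with overlap in both sexes. Its difference of 0.31 (95% interval -0.01 to 0.64, adjusted p = 0.219) was not called. Its means by genotype put Q92 and not Q175 at the top: 106 ± 18.6 CPM in WT, 129.8 ± 16.2 in Q175, 131 ± 44.3 in Q20, 134.5 ± 26.4 in Q80, 148 ± 16.2 in Q140, 155 ± 45.7 in Q111 and 173 ± 50.2 in Q92. It belongs to a cluster of similar Ly6 genes, so its counts carry the same uncertainty over shared reads as those of Cd55. None of the 4 other Ly6 genes was called, with Ly6d at 1.43 (adjusted p = 0.148), Ly6e at 0.39, Ly6c1 at 0.24 and Ly6c2 at 0.35. Of 12 genes that fibroblasts share, the proteoglycan gene Dcn (0.58 ± 0.19, adjusted p = 0.0395) and the surface antigen gene Thy1 (0.57 ± 0.19, adjusted p = 0.0454) were called higher, and the collagen genes Col3a1 (0.69, adjusted p = 0.0514) and Col1a1 (0.82, adjusted p = 0.0656) were not.

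Zfp521, the zinc finger gene that restrains adipocyte commitment through EBF1 and ZFP423, had 8.98, 13.05 and 14.98 CPM in WT females and 10.4, 10.5, 12.7 and 15.7 CPM in WT males. In Q175 it had 17.5, 20.2, 20.4 and 21.3 CPM in females and 16.8, 16.8, 18.01 and 19.5 CPM in males. It was the 1 marker of the 10 for which all 8 Q175 libraries lay above all 7 WT libraries. Over all tested genes such an upward separation held for 0.701%. The fitted difference was 0.61 ± 0.21 (adjusted p = 0.0493), a 1.52-fold level. Its means were 12.2 ± 0.560 CPM in Q20, 12.3 ± 2.50 in WT, 12.7 ± 4.89 in Q92, 12.8 ± 2.89 in Q80, 13.98 ± 4.87 in Q140, 15.6 ± 6.36 in Q111 and 18.8 ± 1.77 in Q175, the first 6 within 1 SD of each other. Within 1 SD, Q92, Q140 and Q111 also overlapped Q175. The highest level of any library was that of Q111 female 4, at 31.1 CPM. None of its 6 partner and target genes was called. The browning regulator gene Prdm16 stood at 0.43 (adjusted p = 0.0734), Ebf2 at 0.25, Ebf1 at -0.15 and Zfp467 at -0.11.

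Dlk1, the imprinted gene of the surface protein Pref-1, which blocks adipocyte differentiation once ADAM17 releases it, was low throughout. It ranged from 0.539 to 1.99 CPM in WT and from 1.06 to 2.11 CPM in Q175, which overlapped. The difference of 0.53 (95% interval -0.07 to 1.13, adjusted p = 0.266) was not called. Mean levels were 1.003 ± 0.292 CPM in Q92, 1.06 ± 0.524 in WT, 1.34 ± 0.534 in Q80, 1.43 ± 0.413 in Q20, 1.44 ± 0.839 in Q111, 1.54 ± 0.377 in Q175 and 1.78 ± 1.01 in Q140. Of 6 genes of its cluster and its processing, Adam17 was called higher by 0.34 ± 0.09 (adjusted p = 0.00787), and the imprinted noncoding RNAs Meg3 (0.50, adjusted p = 0.0937) and Rian (0.57, adjusted p = 0.109) and the receptor gene Notch1 (0.29, adjusted p = 0.23) were not.

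Wnt2, a secreted ligand gene of the DPP4 progenitors, had 0.400, 0.431 and 0.637 CPM in WT females and 0.0221, 0.0460, 0.217 and 0.240 CPM in WT males. It had 1.05, 1.07, 1.26 and 1.72 CPM in Q175 females and 0.131, 0.351, 0.501 and 0.525 CPM in Q175 males. Females did not overlap, and 3 of 4 Q175 males exceeded every WT male. The difference was the largest of the 10 in size, at 1.44 (95% interval 0.36 to 2.51), but with its low counts it did not pass (adjusted p = 0.0748). Means were 0.285 ± 0.220 CPM in WT, 0.616 ± 0.315 in Q20, 0.627 ± 0.492 in Q111, 0.658 ± 0.402 in Q80, 0.826 ± 0.535 in Q175, 0.850 ± 0.573 in Q140 and 0.897 ± 0.552 in Q92. Of 16 Wnt pathway genes of fat, the anti-adipogenic ligand gene Wnt10b was called higher (1.40 ± 0.36, adjusted p = 0.00957) and the transcription factor gene Tcf7l2 lower (-0.55 ± 0.16, adjusted p = 0.0227). The Wnt inhibitors Sfrp2 (0.92, adjusted p = 0.0793) and Sfrp1 (0.96, adjusted p = 0.0797) were not called.

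**Figure D1:**
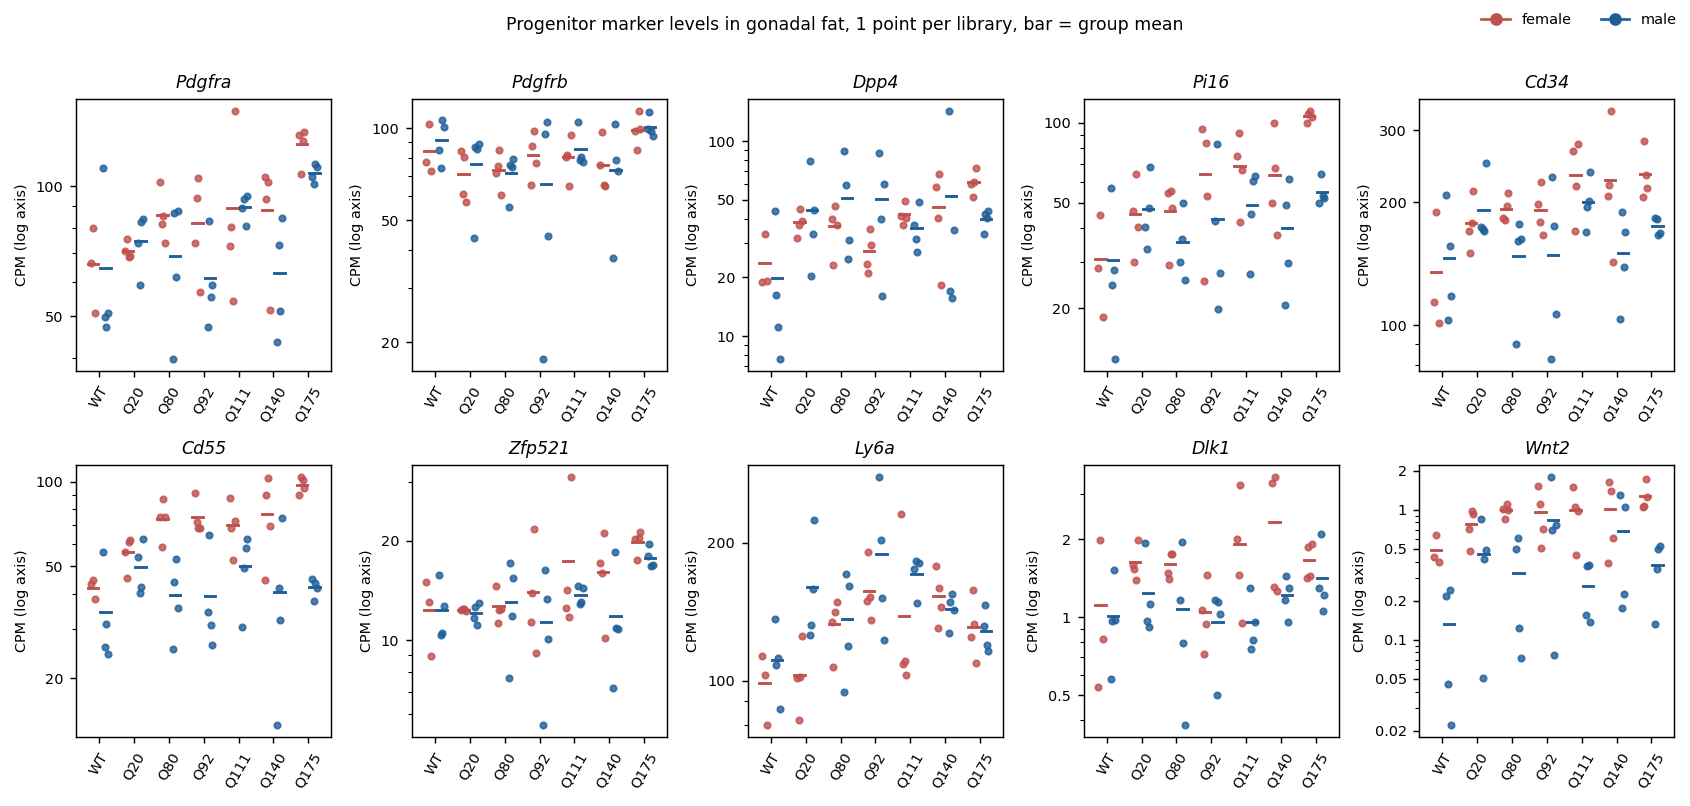
Levels of the 10 markers in CPM on log axes, 1 point per library, with females in red and males in blue and a bar at each group mean, for WT and the 6 knock-in lines in order of repeat length. All 8 Q175 points of Zfp521 lie above every WT point, the Pi16 points of Q175 split into females at 99.9 CPM or more and males at 64.4 CPM or less, and 1 WT male stands high for Pdgfra at 111 CPM.

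WT male 1 stood apart from the other WT males. It had the highest WT level of 7 markers, 1152 CPM of summed macrophage markers against 367 to 694 CPM in the other 6 WT libraries, and the lowest mitochondrial share of reads among WT, 7.19%. Without it, 6 markers were called in Q175 against WT, with Pdgfra at 1.03 (adjusted p = 0.000278), Dpp4 at 1.57 (adjusted p = 0.0038), Pi16 at 1.56 (adjusted p = 0.000614), Cd55 at 0.92 (adjusted p = 0.00436) and Zfp521 at 0.68 (adjusted p = 0.0284). Cd34 was then called too, at 0.64 (adjusted p = 0.0165), and it was also called without WT female 2 (0.69, adjusted p = 0.0166). The share of all genes called in these fits is not given here. The count of 6 therefore does not show that the markers moved more than other genes.

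The calls rested on few libraries in some cases. Leaving out any 1 library kept Pdgfra and Pi16 called. The call of Cd55 ended without WT female 1 or 3 or WT male 2, 3 or 4 (adjusted p 0.0543 to 0.0757). That of Dpp4 ended without those same WT libraries or without Q175 female 1, 3 or 4 or male 3 or 4 (0.0504 to 0.106). That of Zfp521 ended without any 1 library other than WT male 1 (0.0521 to 0.174), although its values stayed at 0.52 to 0.69. With the lane digit of the library label as a term, none of the 10 was called: Pdgfra had 0.69 (adjusted p = 0.0584), Pi16 1.21 (adjusted p = 0.0523), Cd55 0.72 (adjusted p = 0.15), Dpp4 0.97 (adjusted p = 0.204) and Zfp521 0.43 (adjusted p = 0.348). In that fit 1.98% of all genes were called, and 6 of the 10 and 15.5% of all genes had an unadjusted p under 0.05. Every WT female carried the same lane digit, which female 2 alone carried among the Q175 libraries. Lane and genotype therefore partly coincided in this comparison. Without the term DESeq2 called 7 of the 10 and 14.4% of all genes, and voom with quality weights 8 and 39.9%.

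Markers of other cell types moved along in Q175. Of 7 macrophage markers, 5 were called higher, among them Itgam (1.22 ± 0.26, adjusted p = 0.00227), Mrc1 (0.91 ± 0.19, adjusted p = 0.00242), Csf1r (0.83 ± 0.20, adjusted p = 0.00503) and Cd163 (1.11 ± 0.27, adjusted p = 0.00576). Their summed level ran from 367 to 1152 CPM in WT and from 961 to 1136 CPM in Q175. None of 8 adipocyte, 9 mural, 7 endothelial, 7 mesothelial, 8 lymphocyte, 7 tested female tract or 6 skeletal muscle markers was called. The adipocyte sum was 26320 ± 2546 CPM in WT and 20131 ± 3988 CPM in Q175, and 7.61 ± 1.07% of reads were mitochondrial in Q175 against 11.3 ± 2.23% in WT. The part of macrophages, adipocytes and mitochondrial reads in the marker differences was not tested. Of 9 epididymis markers, 7 were tested and Crisp1 and Gpx5 were called higher; their sum was 0.0940 to 1.72 CPM in WT, 0.446 to 5.37 CPM in Q175 females and 497 to 3182 CPM in Q175 males. Of 6 markers of mammary epithelium, 5 were tested and the keratin gene Krt5 was called higher (8.91, adjusted p = 0.0173). The sum of this list was highest in Q140 male 1 (1113.5 CPM) and Q92 male 1 (1023.8 CPM). These libraries had 30232 and 16722 CPM of epididymis markers, so the list cannot be read as mammary tissue alone. Without the 11 libraries high in epididymis markers, in a model that adds sex and genotype, the 5 calls held, with Pdgfra at 0.91, Pi16 at 1.68, Cd55 at 1.13, Dpp4 at 1.37 and Zfp521 at 0.66, and Cd34 was also called (0.71, adjusted p = 0.014). That comparison has females only on the Q175 side.

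The next question was whether the sexes differed in this response. In females alone 0 of 10 markers were called, where 0.199% of all tested genes were (0.118% higher and 0.0805% lower), and 6 had an unadjusted p under 0.05, as 12.9% of all genes had. DESeq2 called 3 (2.65% of all genes), voom with quality weights 7 (19.7%) and limma on log2(FPKM + 0.1) 2 (0.729%). In males alone 0 of 10 were called, where 1.76% of all genes were (0.284% higher and 1.48% lower), and 3 had an unadjusted p under 0.05, as 19.1% of all genes had. DESeq2 called 0 (5.77% of all genes), voom 6 (34.3%) and limma on log2(FPKM + 0.1) 1 (1.36%). Every Q175 female lay above every WT female for 7 markers, Pdgfra, Dpp4, Pi16, Cd34, Cd55, Zfp521 and Wnt2, as it did for 10.7% of all tested genes. In males this held for Zfp521, and for 7.81% of all genes. The fitted female differences were 0.93 for Pdgfra, 1.78 for Pi16, 1.22 for Cd55, 0.80 for Cd34 and 1.37 for Dpp4. Their male counterparts were 0.74, 0.85, 0.29, 0.26 and 1.02 in the same order.

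The test of the difference itself called 0 of the 10, where 0.0284% of all genes were called, and DESeq2, voom and limma on FPKM also called 0. The male minus female difference in response was -0.92 for Cd55 (95% interval -1.83 to -0.01, unadjusted p = 0.0463), the 1 marker with an unadjusted p under 0.05, a level that 2.36% of all genes reached. It was -0.94 for Pi16 (95% interval -2.14 to 0.26) and -0.54 for Cd34 (-1.28 to 0.19). The intervals of Pi16 and Cd34 held 0 as well as a difference beyond 1 on the log2 scale. In the males without WT male 1, Pdgfra (1.13, adjusted p = 0.00915) and Dpp4 (1.77, adjusted p = 0.0415) were called. All 4 Q175 males were high in epididymis markers, so no male comparison could be made without such libraries.

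**Figure D2:**
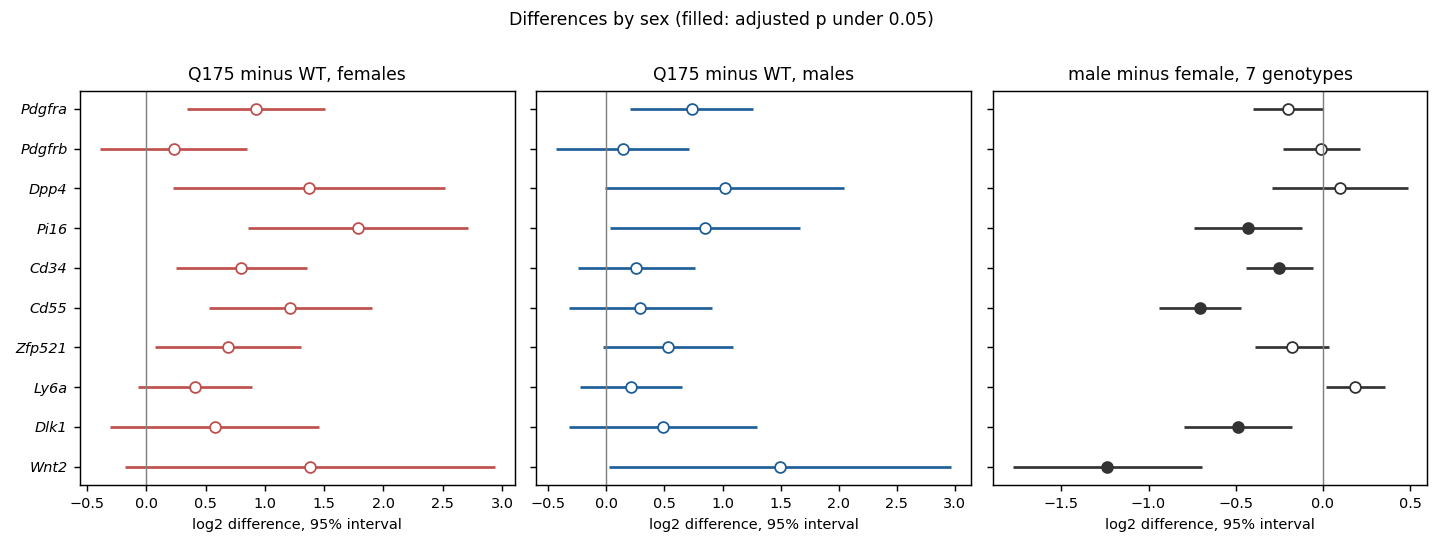
Fitted log2 differences with 95% intervals for Q175 minus WT in females, for Q175 minus WT in males, and for male minus female over the 7 genotypes, 1 row per marker, filled where adjusted p was under 0.05. In the first 2 panels all points lie right of 0 and none is filled, with Pi16 at 1.78 in females and 0.85 in males, and in the third panel 5 markers are filled left of 0.

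Q20, a knock-in allele with a short repeat, served as the second control. Against Q20, 2 of the 10 markers were called higher in Q175, Pdgfra and Zfp521, where 4.54% of all tested genes were called higher, 9.7% lower and 14.2% in either direction. The median difference of the 10 was 0.27 against 0.01 over all genes. Q20 libraries had 59.0 to 83.9 CPM of Pdgfra with a median of 72.2, and Q175 libraries 101 to 134 CPM with a median of 112, without overlap. Pdgfra was higher by 0.67 ± 0.19 (adjusted p = 0.0100). For Zfp521 the range was 11.2 to 12.9 CPM in Q20 with a median of 12.4 and 16.8 to 21.3 CPM in Q175 with a median of 18.8, again without overlap, and the difference was 0.62 ± 0.20 (adjusted p = 0.0273). Separation of this kind held for these 2 markers and for 1.19% of all tested genes.

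No other marker was called against this control. Pi16 differed by 0.72 (95% interval 0.14 to 1.29, adjusted p = 0.0858) and Pdgfrb by 0.44 (95% interval 0.04 to 0.85, adjusted p = 0.141). Dpp4 (0.27), Cd55 (0.28), Cd34 (0.14), Wnt2 (0.22), Dlk1 (0.11) and Ly6a (0.02) had adjusted p of 0.446 or more. With each library's trend over transcript length removed, neither call held, with Pdgfra at 0.44 (adjusted p = 0.132) and Zfp521 at 0.43 (adjusted p = 0.202). The Zfp521 call also ended without Q20 male 3 (0.60, adjusted p = 0.0526).

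Set beside its own control, Q20 had higher fitted levels than WT for 8 of the 10 markers and for 50.85% of all tested genes. None of the 10 was called, where 0.753% of all genes were (0.35% higher and 0.403% lower). The differences were 1.22 for Wnt2 (95% interval 0.15 to 2.29), 0.93 for Dpp4 (0.16 to 1.69), 0.60 for Pi16 (-0.01 to 1.20), 0.48 for Cd55 (0.02 to 0.93), 0.42 for Dlk1, 0.39 for Cd34 (0.02 to 0.76), 0.30 for Ly6a and 0.16 for Pdgfra. Zfp521 (-0.01) and Pdgfrb (-0.26) had no positive value. An unadjusted p under 0.05 was found for 4 of them and for 10.2% of all genes; DESeq2 called 0, limma on FPKM 0 and voom with quality weights 5, where voom called 9.56% of all genes. The 3 comparisons share their libraries and are not independent. Side by side, the Q175 differences of Zfp521 were 0.61 to WT and 0.62 to Q20 and those of Pdgfra 0.83 and 0.67, while those of Dpp4 were 1.20 and 0.27 and those of Wnt2 1.44 and 0.22.

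**Figure D3:**
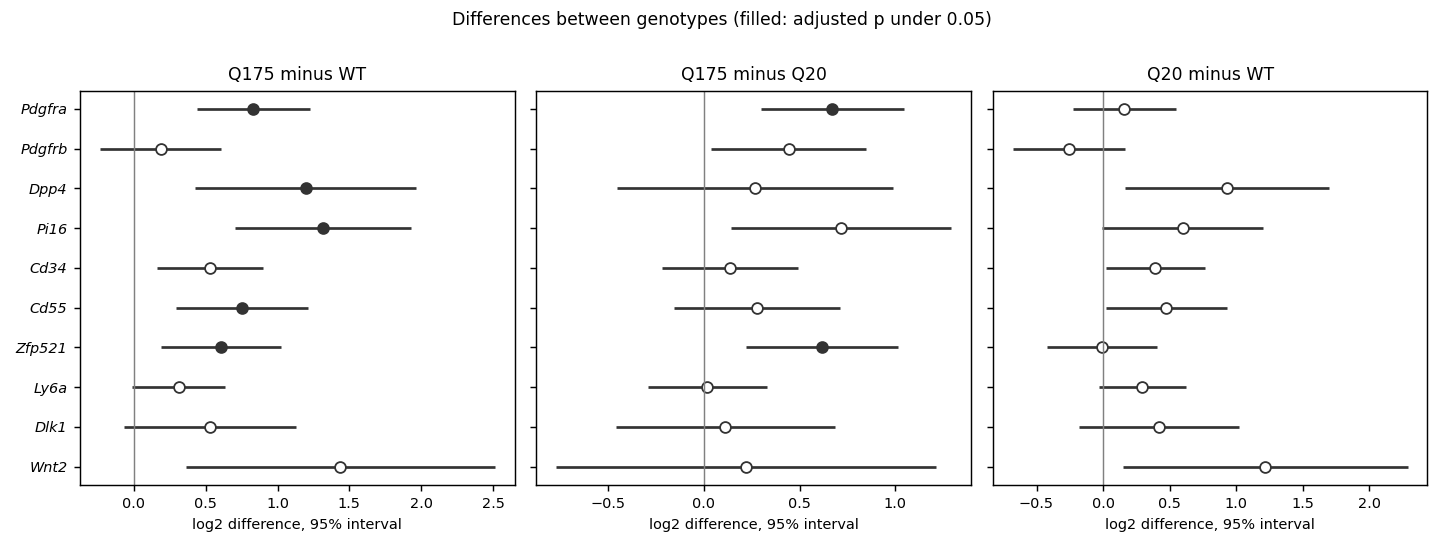
Fitted log2 differences with 95% intervals for Q175 minus WT, Q175 minus Q20 and Q20 minus WT, 1 row per marker, filled where adjusted p was under 0.05. Pdgfra and Zfp521 are filled in the first 2 panels, at 0.83 and 0.61 to WT and 0.67 and 0.62 to Q20, and no marker is filled in the third.

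The other genes of these pathways were counted in the same comparison with Q20. Of the 15 interstitial progenitor genes, 3 were called higher: the ferritin receptor gene Scara5 (0.64 ± 0.18, adjusted p = 0.0109), Limch1 (0.57 ± 0.18, adjusted p = 0.023) and Fbn1 (0.82 ± 0.28, adjusted p = 0.0365), with Creb5 at 0.82 (adjusted p = 0.0535). None of the 4 PDGF ligand genes, 9 committed preadipocyte genes, 6 CD142 genes, 12 shared fibroblast genes or 4 Ly6 genes was called. Of the 6 Zfp521 partners, Prdm16 was called higher (0.54 ± 0.15, adjusted p = 0.0109), and of the 16 Wnt genes the receptor gene Fzd4 (0.64 ± 0.21, adjusted p = 0.0318) and Wnt10b (1.02 ± 0.34, adjusted p = 0.0366). In the Dlk1 list Adam17 (0.25 ± 0.08, adjusted p = 0.0314) and Meg3 (0.54 ± 0.19, adjusted p = 0.045) were called higher. Among markers of other cells, 1 of 9 mural (Notch3), 1 of 7 endothelial (Vwf), 1 of 7 macrophage (Mrc1) and 1 of 7 tested epididymis genes (Gpx5) were called higher, and their part in the differences was not tested.

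Repeat length was also tested as a slope over the 6 knock-in lines, of which Q175 alone lay in the other range of library numbers, so that at its long end length and range cannot be told apart. Pdgfra (0.36 ± 0.11 per 100 repeats, adjusted p = 0.0359) and Zfp521 (0.37 ± 0.12, adjusted p = 0.0444) were called with a positive slope, 2 of 10 where 2.65% of all genes were called in that direction, 5.66% in the other and 8.32% in either. Pi16 had 0.43 (adjusted p = 0.106) and Pdgfrb 0.24 (adjusted p = 0.21). Without Q175, over Q20 to Q140, the slope was 0.10 (95% interval -0.20 to 0.39) for Pdgfra and 0.20 (-0.11 to 0.52) for Zfp521, and none of the 10 was called, none had an unadjusted p under 0.05 (7.61% of all genes had), and DESeq2, voom and limma on FPKM called none. Over that range 0.00474% of all genes were called. Both slope calls ended with the lane term (0.24 and 0.27), without the 2 Q140 libraries of contradicted sex (0.33 and 0.38, adjusted p 0.0658 and 0.0577) and with the length trend removed (0.25 and 0.27). Leaving out 1 library ended the call of Pdgfra in 10 of 48 cases and that of Zfp521 in 23 of 48, named in the closing section.

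The lines between showed no called marker. Against Q20, 0 of 10 were called in Q80, Q111 and Q140, where 0 of all 21113 genes were called in each, and none of the 10 had an unadjusted p under 0.05, against 7.96%, 6.94% and 10.3% of all genes in turn. DESeq2, voom and limma on FPKM called none of the 10 there. In Q92, 6.11% of all genes were called, 5.91% higher and 0.208% lower, and 0 of the 10, with 1 at an unadjusted p under 0.05, where 18% of all genes were. That was Ly6a, with 123 to 278 CPM in Q92 (median 152) against 81.9 to 225 CPM in Q20 (median 125). The groups overlapped and the difference was 0.42 (95% interval 0.11 to 0.73, adjusted p = 0.0963). It was called without Q20 male 4, Q92 male 3 or Q92 male 4 (0.47 to 0.53, adjusted p 0.0391 to 0.0441), while DESeq2 and limma on FPKM called it higher, and voom called no marker higher and 1 lower. Skeletal muscle markers moved with this group. Of 6, 5 were called higher in Q92, led by Tnnt3 (7.88, adjusted p = 0.00588), and their sum was 15.5 to 6741 CPM in Q92 and 4.18 to 157 CPM in Q20. It reached 6741, 2006 and 4590 CPM in Q92 female 1, female 2 and male 1, where Ly6a had 149, 191 and 278 CPM, and 15.5 to 71.3 CPM in the other 5, where Ly6a had 123 to 203 CPM. The part of muscle in the Q92 values was not tested. Dlk1 differed in Q92 by a fitted -0.50 (95% interval -1.08 to 0.07, adjusted p = 0.352).

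The sexes were compared over all lines by label, so both Q140 groups held a library of contradicted sex. Averaged over the 7 genotypes, 5 of 10 markers were called lower in males and 0 higher, where 18.3% of all tested genes were called lower, 27.9% higher and 46.3% in either direction. The median difference of the 10 was -0.22 against 0.06 over all genes. Cd55 ran from 38.4 to 104 CPM with a median of 69.8 in the 27 female libraries and from 13.6 to 74.4 CPM with a median of 41.8 in the 28 male ones. The ranges overlapped, the male mean was the lower in 7 of 7 genotypes, and the difference was -0.71 ± 0.12 (adjusted p = 5.45e-06). Wnt2 ran from 0.391 to 1.72 CPM (median 0.983) in females and from 0.0221 to 1.78 CPM (median 0.360) in males. It was lower in males in 7 of 7 genotypes, by -1.24 ± 0.27 (adjusted p = 0.000248).

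A further 3 markers passed. Dlk1 had medians of 1.46 CPM in females (range 0.539 to 3.48) and 1.09 CPM in males (0.383 to 2.11), lower in 7 of 7 genotypes, by -0.49 ± 0.15 (adjusted p = 0.00848). Pi16 had medians of 54.6 and 44.0 CPM (ranges 18.6 to 111 and 12.9 to 83.3), lower in males in 6 of 7 genotypes, by -0.43 ± 0.15 (adjusted p = 0.0199). Cd34 had medians of 197 and 169.7 CPM (ranges 101 to 334 and 82.8 to 249.5), lower in males in 5 of 7, by -0.25 ± 0.09 (adjusted p = 0.0279). Ly6a was the marker with the opposite sign closest to the threshold, at 0.19 (95% interval 0.02 to 0.35, adjusted p = 0.0639). Pdgfra (-0.20, -0.40 to 0.00), Zfp521 (-0.18, -0.39 to 0.04), Dpp4 (0.10, -0.29 to 0.49) and Pdgfrb (-0.01, -0.23 to 0.21) were not called.

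The males were also split by their level of epididymis markers. Dpp4 had a median of 59.4 CPM in the 11 male libraries high in these markers and 30.9 CPM in the other 17. Wnt2 had 0.525 and 0.174 CPM, and Pdgfrb 75.8 and 85.8 CPM. Every Q175 male and no WT male was among the high libraries, so this split partly coincided with genotype. The part of that tissue in the values was not tested. Without these 11 libraries, in the model that adds sex and genotype, Cd55 (-0.45, adjusted p = 0.00238), Wnt2 (-1.65, adjusted p = 5.05e-05) and Dlk1 (-0.72, adjusted p = 0.00193) stayed lower in males. Pi16 (-0.20, adjusted p = 0.415) and Cd34 (-0.06, adjusted p = 0.672) did not, Ly6a (0.26, adjusted p = 0.0324) and Pdgfrb (0.17, adjusted p = 0.0438) were called higher, and Dpp4 turned to -0.30 (adjusted p = 0.167). Pi16, Cd34 and Dlk1 also lost their call on FPKM and with the lane term, and Dlk1 when the sexes of the 2 contradictory Q140 libraries were exchanged (-0.36, adjusted p = 0.0579). Leaving out 1 library called Ly6a higher in 9 cases, without Q111 female 1, Q175 female 2, Q20 female 4 or male 1, Q80 male 1, Q92 female 2 or male 3 or 4, or WT male 4 (0.20 to 0.24). Pdgfra was called lower without Q140 female 4 or WT male 1 (-0.23 to -0.26). The Cd34 call ended without Q140 female 3 or WT female 2 (adjusted p 0.0531 and 0.0721).

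**Figure D4:**
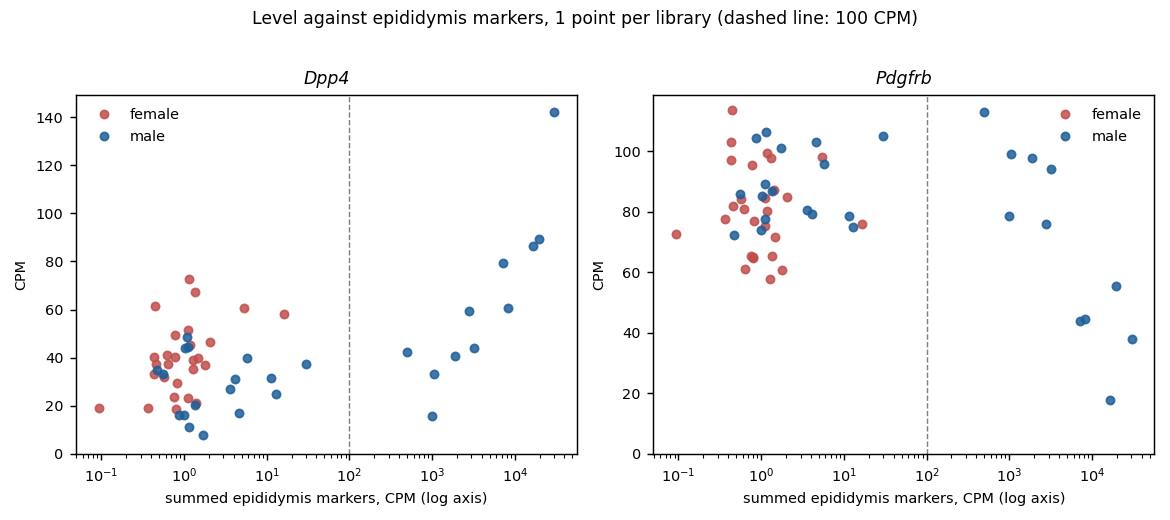
Levels of Dpp4 and Pdgfrb in CPM against the summed CPM of 9 epididymis markers on a log axis, 1 point per library, females red and males blue, with a dashed line at 100 CPM. Right of the line, where 11 male libraries lie, Dpp4 reaches its highest level of 142 CPM and Pdgfrb its lowest of 17.7 CPM.

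Among 6 genes of the imprinted cluster and processing of Dlk1, 3 were called lower in males: Meg3 (-0.91 ± 0.10, adjusted p = 2.84e-09), Rian (-0.88 ± 0.12, adjusted p = 2.08e-07) and Rtl1 (-0.73 ± 0.19, adjusted p = 0.00148). Adam17 (0.10, adjusted p = 0.0565), Notch1 (0.16, adjusted p = 0.0943) and Dio3 (-0.12, adjusted p = 0.732) were not called. The 15 interstitial progenitor genes were mixed, 5 higher and 3 lower in males: the growth factor gene Bmp7 (1.96 ± 0.32) and Scara5 (0.50 ± 0.10) were higher and Col14a1 (-0.88 ± 0.16) and Sbsn (-0.67 ± 0.13) lower, with adjusted p from 4.93e-06 to 6.75e-05. Of the 12 shared fibroblast genes, 7 were lower and none higher, led by the proteoglycan gene Lum (-1.80 ± 0.16, adjusted p = 1.49e-11), Col6a1 (-0.70), Col6a2 (-0.64) and Fap (-0.82).

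Co-variation within groups was described with log2 CPM from which each of the 14 group means was subtracted, over 55 libraries that share tissue and depth. The 45 pairs of markers had a median Pearson r of 0.24, and 32 were positive. Pdgfra and Zfp521 formed the pair with the highest r, 0.81, followed by Pi16 and Cd55 at 0.74, and Cd34 correlated at 0.69 with Zfp521, 0.65 with Cd55 and 0.63 with Pdgfra. The lowest value was that of Pdgfrb with Dpp4, -0.55. Dlk1 and Ly6a had no Pearson r above 0.35 to another marker. By Spearman rank correlation, however, Ly6a had 0.45 with Cd34 and Dlk1 0.46 with Dpp4.

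**Figure D5:**
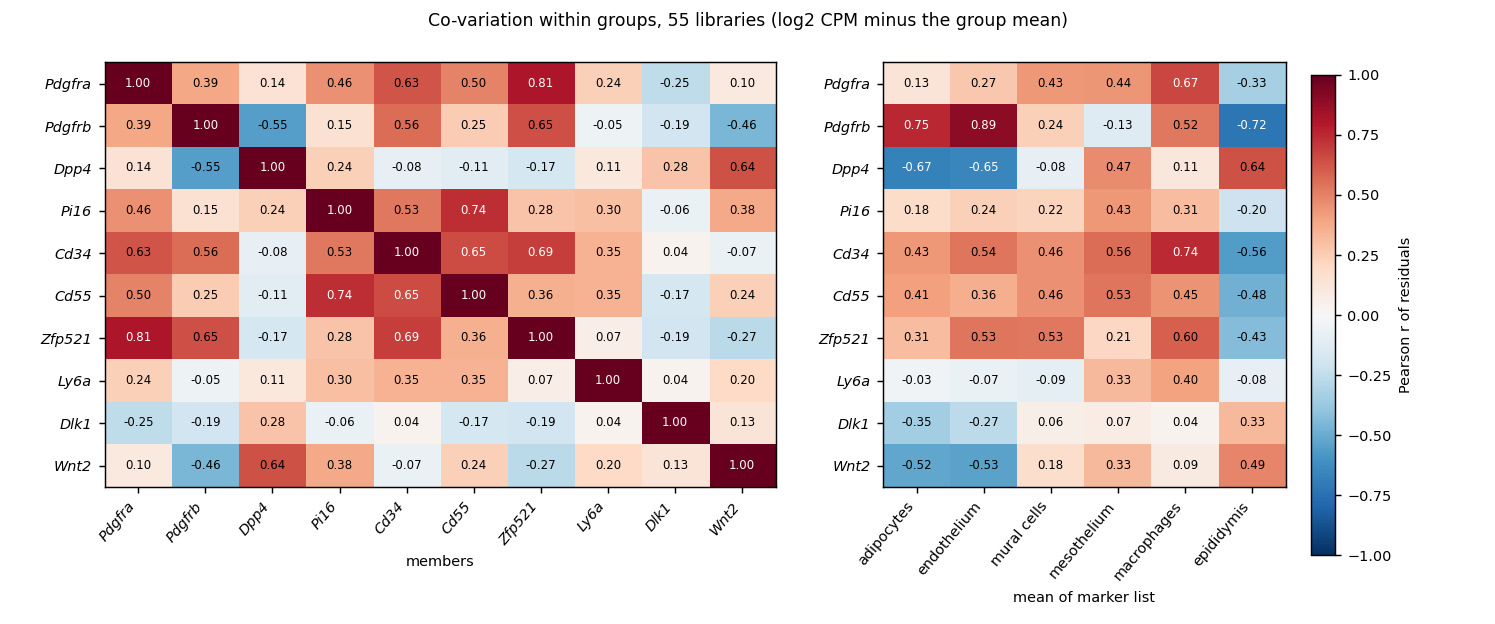
Pearson r of log2 CPM residuals from the group means over 55 libraries, between the 10 markers on the left and between each marker and the mean of 6 lists of cell type markers on the right, red positive and blue negative. Pdgfra and Zfp521 share the highest r among markers, 0.81, and Pdgfrb with the endothelial list has 0.89.

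Against markers of other cells, Pdgfrb followed the endothelial list most closely (r = 0.89) and the epididymis list in the opposite direction (-0.72). It also had 0.75 to the adipocyte and -0.72 to the mammary epithelium list. Dpp4 had the opposite sign to all 4 lists, with 0.69 to mammary epithelium, 0.64 to epididymis, -0.67 to adipocytes and -0.65 to endothelium. The mammary epithelium list was highest in male libraries that were also high in epididymis markers, so it cannot be read as mammary tissue alone. Cd34 had 0.74 and Pdgfra 0.67 to the macrophage list. Single genes most like each marker by the same measure were Abca9 (0.86) and Hmcn1 (0.82) for Pdgfra, Elk3 (0.94) and the endothelial genes Pecam1 (0.92) and Tie1 (0.91) for Pdgfrb, Cxadr (0.91), Tmem108 (0.91) and Ptpn13 (0.90) for Dpp4, and Tmem100 (0.84), Islr2 (0.83) and Gfpt2 (0.82) for Pi16. For Cd34 they were Kdelc2 (0.92), Fstl1 (0.90) and Fbln2 (0.90), for Cd55 Epdr1 (0.88), Ugt3a2 (0.84) and Fndc1 (0.82), and for Zfp521 Antxr2 (0.89), Ecm2 (0.88) and Pde3a (0.86). The values were lower for Ly6a with Kcnab2 (0.66), Tnfaip2 (0.64) and C4a (0.61), for Dlk1 with Mmd2 (0.66), its cluster neighbour Dio3 (0.66) and Cacna2d3 (0.65), and for Wnt2 with Cenpq (0.71), Tubb2b (0.70) and Fxyd3 (0.69).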

How the data were processed

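Messenger RNA of gonadal white fat had been sequenced in 55 libraries of 14 groups of genotype and sex. The authors deposited estimated counts per Ensembl gene, of which 33.7% of the nonzero values were not whole, and FPKM per gene, which is scaled to length and depth. Base calling with CASAVA 1.8.2 is given per the submitters' processing notes. An aligner, counting tool, genome build or strand setting is not given in the sources used here. Symbols were taken from GENCODE annotation in the reference, in which 42548 of 43432 identifiers matched.

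Deposited counts were rounded, scaled by TMM and filtered with filterByExpr over the 14 groups, which left 21113 genes. edgeR 4.0.16 (R 4.3.3) fitted 1 mean per group with robust quasi-likelihood dispersions, and contrasts gave the mean of both sexes. P-values were adjusted by Benjamini-Hochberg over all tested genes, and a gene was called at an adjusted p under 0.05. Intervals are 95% on 41 residual degrees of freedom. CPM use TMM-scaled totals, and total counts of 35094392 to 51363577 per library set the counting precision. FPKM was tested with limma on log2(FPKM + 0.1) and log2(FPKM + 1), which understates changes of low genes. On data simulated for Q175 against WT over 21113 genes, the test recovered 80 of 100 genes changed by log2 1 and 90 of 100 changed by log2 2, with 8 false calls. Apart from these changes, each simulated gene had 1 mean for all libraries, with dispersions from the WT libraries. The changed genes had a mean of at least 1 CPM, which leaves out genes as low as Wnt2. No effect of sex, library range or other tissue was simulated, so these rates need not hold for the real libraries.

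The 10 markers were always named, as were up to 4 genes of each list with the smallest p and the 3 genes most correlated with each marker. The members and lists were chosen with earlier results of these data known. Alternatives covered RLE scaling, filters, DESeq2 1.42.0, limma 3.58.1 with voom, FPKM, a replicate block, a lane term, removal of a transcript length trend, fits of the compared genotypes alone and omission of libraries. A further gene list is not reported here.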

Additional observations from a re-analysis of the deposited data

Results flagged for a closer look

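Each of the 10 markers was examined in each group of 4 libraries, 130 combinations in all, and in 8 of them 1 library lay far from the other 3. Chance gives about 1 in 20, so this number is close to what chance gives. In WT male 1 Pdgfra stood at 111 CPM, with the other WT males at 47.1 to 50.9 CPM. Pdgfrb was high in Q111 male 1, at 105 CPM against 77.7 to 80.5 CPM, and low in Q20 male 1, at 43.8 CPM against 85.8 to 89.1 CPM. Dpp4 reached 142 CPM in Q140 male 1, the highest of all libraries, against 15.6 to 35.01 CPM in its group. Cd34 had 249.5 CPM in Q20 male 4 against 169.9 to 174 CPM, and Cd55 91.1 CPM in Q92 female 1 against 68.6 to 72.2 CPM. Zfp521 had 31.1 CPM in Q111 female 4 against 11.7 to 14.2 CPM, and Ly6a 232 CPM in Q111 female 1 against 103 to 110.3 CPM. Both Q20 male 1 and Q140 male 1 were among the 11 male libraries high in epididymis markers, and the part of that tissue in their values was not tested.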

How the results depend on the processing

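Counts here are out of all 10 markers, with the main count in brackets. The share of all genes called also differed between these fits and is printed for some of them only. A change in a count is therefore not by itself a result about the markers. For Q175 against WT (5), 3 were called higher with no filter on low counts, 8 by voom, 0 with the lane term and 8 in a fit of these genotypes alone, and 2 to 6 with 1 library left out. In females (0), DESeq2 called 3, voom 7, FPKM with either pseudocount 2, the fit of these genotypes alone 4, and the fit without libraries high in epididymis markers that kept group means 3. In males (0), voom called 6, FPKM 1 and the fit of these genotypes alone 2, with 0 to 2 when 1 library was left out. Against Q20 (2), voom called 6, FPKM 4, the fit without libraries high in epididymis markers 5, removal of the length trend 0 and the fit of these genotypes alone 5, with 1 to 2 when 1 library was left out. For Q20 against WT (0), voom called 5. For Q92 higher (0), DESeq2, FPKM and removal of the length trend called 1 each, and for Q92 lower voom called 1, with 0 to 1 higher when 1 library was left out.

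For the slope (2), no filter gave 1, voom 5, FPKM 4, the lane term 0, omission of the 2 libraries of contradicted sex 0, omission of those high in epididymis markers 5, removal of the length trend 0 and the knock-in lines alone 1, with 0 to 2 when 1 library was left out. The slope call of Pdgfra ended without Q175 female 1, 3 or 4 or male 3 or 4, or Q20 female 1, 2, 3 or 4 or male 2 (adjusted p 0.0503 to 0.0719). That of Zfp521 ended without Q140 female 1, 2 or 3 or male 2, Q175 female 1, 3 or 4 or any Q175 male, any Q20 library, or Q80 female 2, 3 or 4 or male 3 (0.0502 to 0.0811). For male higher (0), the filter at a mean of 1 CPM, DESeq2, FPKM, removal of the length trend and exchange of the 2 contradictory sexes gave 1 each and omission of libraries high in epididymis markers 2, with 0 to 1 when 1 library was left out. For male lower (5), FPKM gave 2, the lane term 2 and omission of those libraries 3, with 4 to 6 when 1 library was left out. The causes were not tested.

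Values near 0 turned sign. Ly6a in Q175 against Q20 became -0.074 with voom, -0.011 with the lane term and -0.033 to 0.12 with 1 library left out, and its slope -0.00062 with voom. Zfp521 in Q20 against WT became 0.061 with voom and 0.057 with the length trend removed, and -0.10 to 0.071 with 1 library left out. The Pdgfra slope over Q20 to Q140 became -0.011 with the lane term. Dpp4 in males against females became -0.24 with voom, -0.021 with the replicate block, -0.076 with the lane term and -0.30 without libraries high in epididymis markers, and -0.079 to 0.14 with 1 library left out. Pdgfrb there became 0.062 and 0.063 on FPKM with 0.1 and 1 added, 0.0086 with the lane term and 0.17 without those libraries, and -0.055 to 0.024 with 1 library left out. Voom also called 39.9% of all genes in Q175 against WT and 49.5% in Q175 against Q20. On FPKM with 0.1 added, 11.2% of all genes were called in Q175 against WT, 9.6% higher, against 10.4% and 3.34% on counts. FPKM moved the median of all genes to 0.17 in Q175 against WT, 0.20 in Q175 against Q20 and 0.16 in males against females, with 0.1 added.

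Replicate numbers did not pair the libraries: deviations of same-numbered libraries had a mean r of 0.031 over 351 pairs and others -0.0076 over 1053. With the replicate block, Zfp521 in Q175 against WT had 0.60 (adjusted p = 0.0578). The exchange of sexes and the female fit that kept group means were chosen after seeing the data. Wnt2 has no value under the filter at a mean of 1 CPM, the additive fit gives none per sex, and the fit of compared genotypes alone gives none between the sexes. Low counts limit Wnt2 and Dlk1 most.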

Other observations

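Further genes around the markers differed between the sexes. Of the 16 Wnt pathway genes, 4 were called higher and 6 lower in males. The inhibitors Dkk2 (-2.46 ± 0.24, adjusted p = 1.82e-10) and Sfrp4 (-2.07 ± 0.24, adjusted p = 4.7e-09) were lower, and Sfrp1 (1.27 ± 0.19, adjusted p = 8.45e-07) and Sfrp5 (1.96 ± 0.31, adjusted p = 2.75e-06) higher. Of the 9 committed preadipocyte genes, 1 was higher, the lipoprotein gene Apoe (0.84 ± 0.12), and 4 were lower, among them the chemokine gene Cxcl14 (-1.05 ± 0.18), Sparcl1 (-0.58 ± 0.11) and Ggt5 (-0.41 ± 0.11). Of 6 genes of the CD142 population, Gdf10 was higher (0.97 ± 0.16) and Clec11a (-0.82 ± 0.14), Cygb (-0.38 ± 0.08) and Mgp (-0.57 ± 0.13) lower. Of the 6 Zfp521 partners, Ebf3 (-0.78 ± 0.13) and Zfp467 (-0.59 ± 0.11) were lower and Ebf1 higher (0.29 ± 0.12, adjusted p = 0.0411). Pdgfd was lower (-0.25 ± 0.09, adjusted p = 0.0132), 1 of 4 ligand genes. Of 4 other Ly6 genes, Ly6e (0.89 ± 0.15) and Ly6d (1.23 ± 0.33) were higher.

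Markers of other cells also differed between the sexes, and their part in these values was not tested. In males, 2 of 7 endothelial, 2 of 7 macrophage, 5 of 8 lymphocyte, 4 of 7 tested epididymis and 4 of 5 tested mammary epithelium genes were called higher. The mammary epithelium list was highest in male libraries that were also high in epididymis markers. All 6 skeletal muscle genes, 5 of 7 mesothelial, 2 of 9 mural, 1 of 8 adipocyte and 1 of 7 tested epididymis genes were called lower. Of 7 tested female tract genes, 2 were higher and 2 lower.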
